A study of Homo sapiens with 3 samples.

Results

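The DNA replication and S phase genes described here are 59 human genes that build, load, start, feed or guard the DNA replication machinery. They were taken by gene symbol from a table of 13479 genes, and all 59 were listed in it. The assay was CAGE (cap analysis of gene expression), in which short tags are read from capped RNA 5′ ends. The cells were of the established line EBC-1, from a human squamous cell carcinoma of the lung, electroporated with 600 pmol siRNA, and the labels name 72 h after plating. There were 3 groups of 1 library each: RAB11A siRNA 1, RAB11A siRNA 2 and a negative control siRNA. RAB11A is a small GTPase of the recycling endosome, and all groups shared the same line, medium and electroporation. No group had a second culture, so every difference below describes these libraries, and its spread between cultures was not measured.
RAB11A siRNA 1, as ordered: gcauccagguugauggaaa
RAB11A siRNA 2, as ordered: agcaagagcuuuugcagaa

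Before S phase, the origin recognition complex (ORC) and the loading factors CDC6 and CDT1 place the MCM2 to MCM7 helicase on DNA, a step called licensing. At the G1 to S transition, cyclin E with its kinase partner and the kinase CDC7 with DBF4 switch the helicase on, and CDC45 and the GINS complex join it. Primase and polymerase alpha lay down primers, clamp loaders place PCNA, polymerases delta and epsilon extend the strands, and flap endonuclease and ligase join the fragments of the lagging strand. Many of these genes are known targets of E2F transcription factors, which are released as cells pass into S phase, so their RNA is widely read as a sign of cycling cells.

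The unit was CPM, each gene's tags scaled to a common library size, and a CAGE tag marks 1 transcript start, so CPM here is not divided by transcript length. 1 tag was worth 0.04 CPM in every library, and tags summed over genes came to 25204585 for siRNA 1, 25137457 for siRNA 2 and 25174787 for control. The library size behind the CPM scale came to 24999972, 24999969 and 24999968 tags in turn, alike in all 3 and below those sums. Whether tags were cut or rescaled to that size, and why the sums exceed it, is not known here. RAB11A stood at 7.48 CPM with siRNA 1 and 22.7 CPM with siRNA 2, against 135 CPM in the control library. Of 13 epithelial markers, 10 squamous or basal ones (KRT5, KRT6A, KRT6B, KRT14, KRT17, TP63, SOX2, DSG3, DSC3 and SERPINB5) matched no listed gene, so none of them backed the squamous label. Every listed gene reached 0.52 CPM in at least 1 library, but whether these 10 were unlisted for low level is not known here. The simple-epithelium keratins KRT18 and KRT8 stood at 475 and 358 CPM with siRNA 1, at 394 and 329 CPM with siRNA 2, and at 386 and 328 CPM in control. EPCAM, the third epithelial marker listed, was low at 4.28 CPM with siRNA 1, 3.72 CPM with siRNA 2 and 4.20 CPM in control. Of 12 markers of fibroblasts, endothelium and leukocytes, 2 were listed, COL1A1 and COL1A2, and their summed level was 3.32 CPM with siRNA 1, 2.60 CPM with siRNA 2 and 2.84 CPM in control.

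Most replication genes were higher in both RAB11A siRNA libraries than in the control library, more so with siRNA 1, and none reached 2-fold. The 59 genes together made up 0.390% of the tag scale with siRNA 1 and 0.336% with siRNA 2, against 0.290% in control. Their summed level was 3895 CPM with siRNA 1 and 3356 CPM with siRNA 2, against 2898 CPM in control. That is 1.34 times control with siRNA 1 (95% exact interval 1.33 to 1.36) and 1.16 times with siRNA 2 (1.15 to 1.17), where these and all intervals below cover counting error only. The gene with the lowest CPM was E2F2 in every library. The gene with the highest was POLD2, a small subunit of polymerase delta, at 313 CPM with siRNA 1, 258 CPM with siRNA 2 and 272 CPM in control. The plot of levels by library shows the control points to the left of both siRNA points in most rows.

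**Figure D1:**
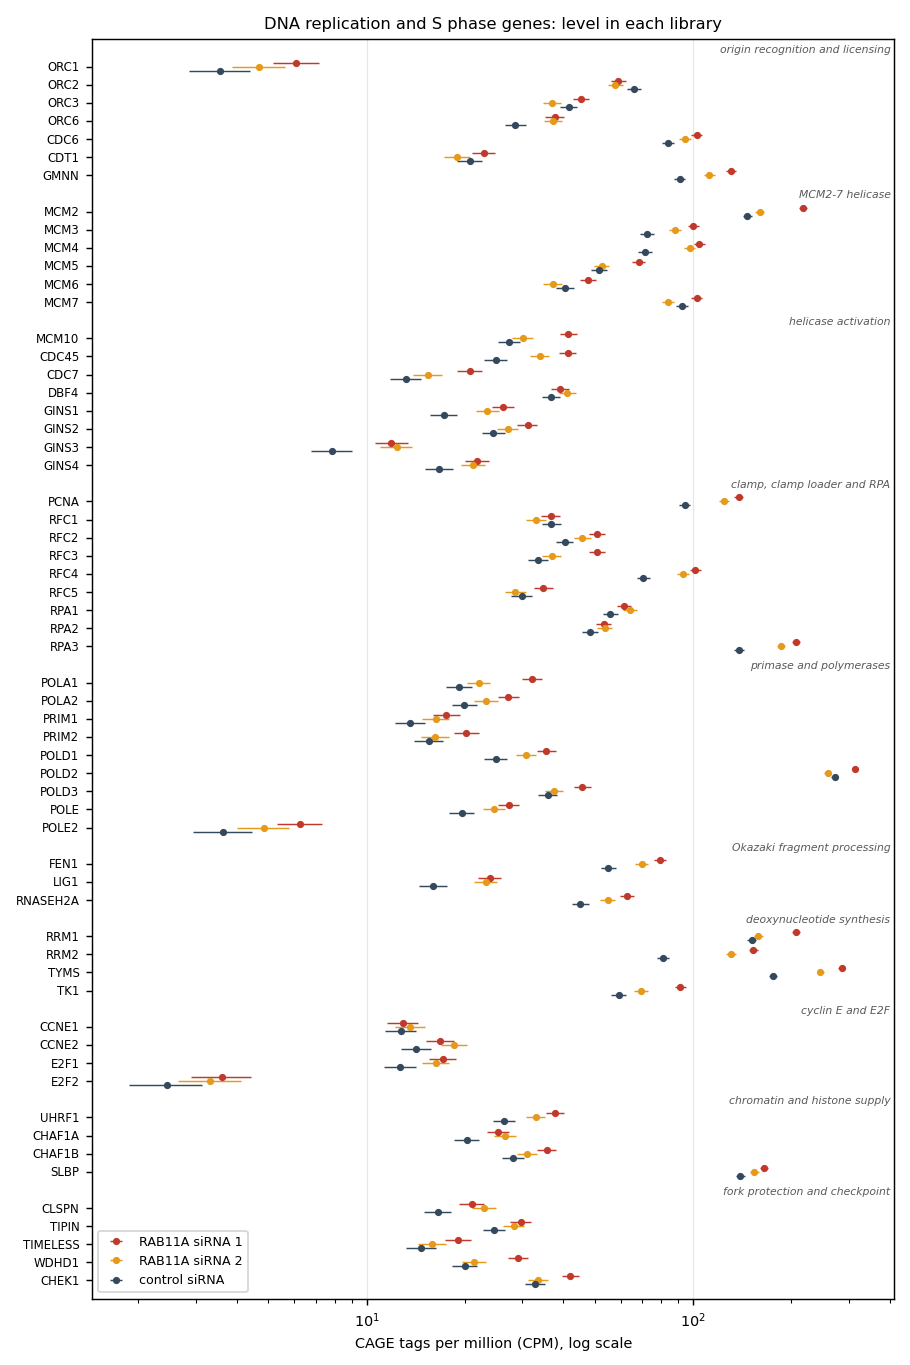
Level of each of the 59 replication genes in CPM (log axis), grouped by role, with 1 point per library and bars for the exact 95% Poisson interval, which covers counting error only. The points of the control library lie lowest in most rows, as for RRM2 at 153 CPM with siRNA 1 against 81.0 CPM in control, whereas ORC2 is highest in control.

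Of the 59 genes, 56 averaged 5 CPM or more over the libraries, or 125 tags, and were set beside the 10788 genes of the table above that level. The comparison used the log2 ratio of (CPM + 1), and a gene counted as far from control at a log2 ratio of 0.32 either way, which upward is 25% on that scale. On it the median counting standard error of a replication gene was 0.065 for siRNA 1 and 0.068 for siRNA 2 against control. The median log2 ratio of the 56 genes was 0.39 with siRNA 1 and 0.20 with siRNA 2, beside -0.03 and -0.04 over all genes compared. With siRNA 1, 39 of the 56 were at least 25% above control and 0 were as far below, where 10.2% of all genes compared were that far above and 11.6% that far below. With siRNA 2, 17 were at least 25% above control and 0 as far below, beside 6% and 11.2% of all genes. At 1.5-fold the counts above control were 8 with siRNA 1 and 2 with siRNA 2, beside 2.81% and 1.24% of all genes, and 0 were that far below in either, beside 2.56% and 1.85%. Above control by any amount were 54 with siRNA 1 and 48 with siRNA 2, beside 45.1% and 41.4% of all genes, and below it 2 and 8, beside 54.6% and 58.2%. No replication gene was 2-fold from control, beside 0.371% of all genes higher and 0.519% lower with siRNA 1 and 0.195% and 0.269% with siRNA 2.

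The single control library enters both ratios, so neither siRNA checks the other. With that limit, 48 of the 56 genes stood above control in both libraries, where 31.4% of all genes did. The order siRNA 1 above siRNA 2 above control held for 40 of the 56 (71.4%), where 19.3% of all genes had it. Of the 56, 15 were at least 25% above in both, where 3.93% did. Below control in both were 2 genes, ORC2 and RFC1, where 44.5% of all genes were. The other 6 (ORC3, CDT1, MCM6, MCM7, RFC5 and POLD2) were above control with siRNA 1 and below it with siRNA 2. An exact binomial test on the tags, with Benjamini-Hochberg adjustment over all genes compared, bears on these libraries alone. With 0.05 as the limit on the adjusted p, it called 50 of the 56 higher and 1 lower for siRNA 1 against control, beside 23.3% and 29.1% of all genes. It called 34 higher and 4 lower for siRNA 2 against control, beside 18.4% and 29.9%, and 38 higher and 0 lower for siRNA 1 against siRNA 2, beside 21.4% and 15.4%. The cumulative plot shows the replication genes shifted to the right of all genes by most in siRNA 1 against control.

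**Figure D2:**
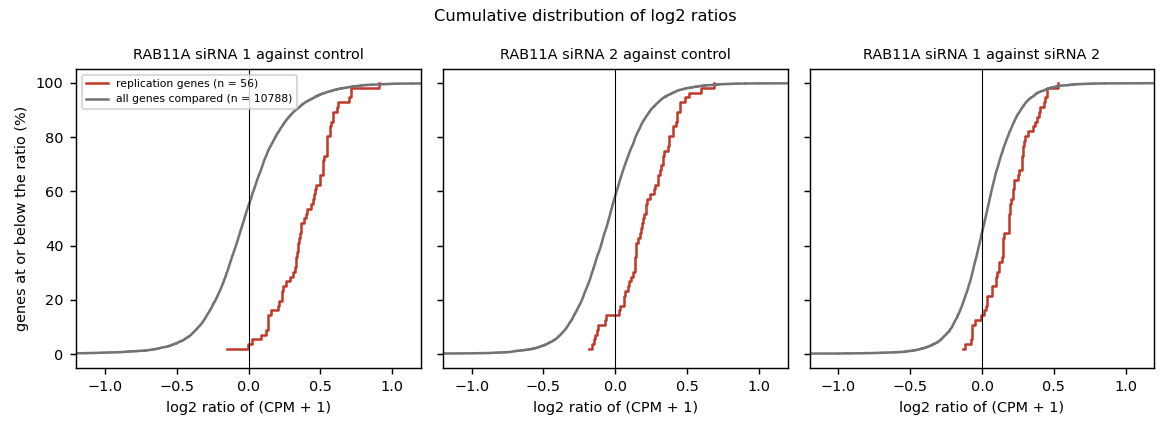
Percentage of genes at or below each log2 ratio of (CPM + 1), for the 56 replication genes and for all 10788 genes compared, in 3 panels for siRNA 1 against control, siRNA 2 against control and siRNA 1 against siRNA 2 (the most extreme ratios lie outside the panels). The replication curve crosses 50% at 0.39, 0.20 and 0.19, and the curve of all genes at -0.03, -0.04 and 0.02.

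The genes of deoxynucleotide synthesis, which supply the building blocks of DNA, stood farthest above control. All 4 were at least 25% above control with siRNA 1, and 2 were with siRNA 2. RRM2, the small subunit of ribonucleotide reductase, which accumulates in S phase, had 153 CPM with siRNA 1 and 131 CPM with siRNA 2, against 81.0 CPM in control. Its log2 ratios of 0.91 with siRNA 1 (counting standard error 0.039) and 0.69 with siRNA 2 (0.040) were the highest of all 59 genes in both comparisons. RRM1, the large subunit of the same enzyme, had 207 CPM with siRNA 1 and 159 CPM with siRNA 2, against 151 CPM in control, with log2 ratios of 0.45 and 0.07. The log2 ratio of RRM2 thus exceeded that of RRM1 by 0.46 with siRNA 1 (95% counting interval 0.36 to 0.56) and by 0.62 with siRNA 2 (0.52 to 0.72). TYMS, thymidylate synthase, had 285 CPM with siRNA 1 and 246 CPM with siRNA 2, against 176 CPM in control, with log2 ratios of 0.70 (counting standard error 0.028) and 0.48 (0.028). TK1, the thymidine kinase of the salvage route, had 91.5 CPM with siRNA 1 and 69.2 CPM with siRNA 2, against 59.2 CPM in control. Its log2 ratio was 0.62 with siRNA 1 and 0.22 with siRNA 2, so with siRNA 2 RRM2 and TYMS were at least 25% above control and TK1 and RRM1 were not.

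**Figure D3:**
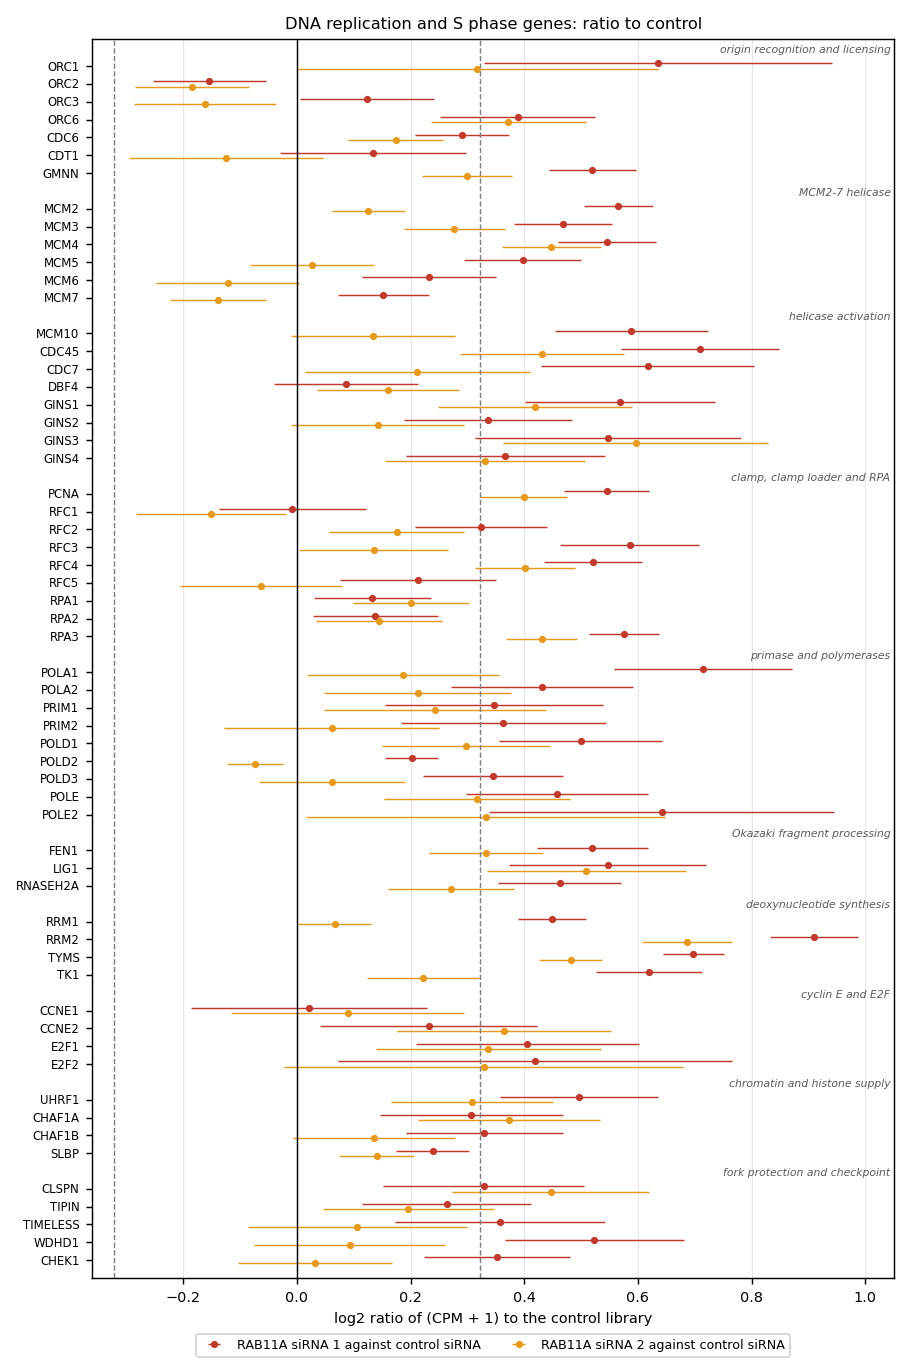
Log2 ratio of (CPM + 1) to the control library for the 59 replication genes, grouped by role, with 1 point for RAB11A siRNA 1 and 1 for siRNA 2. Bars are 95% counting intervals, and dashed lines mark a log2 ratio of 0.32 either way. RRM2 lies farthest right at 0.91 and 0.69, and ORC2 lies left of 0 in both at -0.15 and -0.18.

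The MCM2 to MCM7 helicase, the ring that unwinds DNA, was higher with siRNA 1 in all 6 subunits but split with siRNA 2. MCM2 had 217 CPM with siRNA 1 and 160 CPM with siRNA 2, against 147 CPM in control, with log2 ratios of 0.57 (counting standard error 0.031) and 0.13 (0.033). MCM3 had 100.3 CPM with siRNA 1 and 87.8 CPM with siRNA 2, against 72.3 CPM in control, with log2 ratios of 0.47 and 0.28. MCM4 had 105 CPM with siRNA 1 and 97.6 CPM with siRNA 2, against 71.3 CPM in control, with log2 ratios of 0.55 and 0.45. Only MCM4 of the 6 was past 25% in both comparisons. MCM5 had 68.2 CPM with siRNA 1 and 52.5 CPM with siRNA 2, against 51.5 CPM in control, and its values were identical to those of the entry CTA-286B10.7, so their tags cannot be told apart. MCM6 had 47.8 CPM with siRNA 1 and 37.2 CPM with siRNA 2, against 40.5 CPM in control. MCM7 had 103 CPM with siRNA 1 and 83.8 CPM with siRNA 2, against 92.4 CPM in control. With siRNA 2, MCM5 and MCM6 lay within counting error of control, at log2 ratios of 0.03 and -0.12, while MCM7 was below it at -0.14 (counting standard error 0.043). Although the 6 proteins form 1 ring, the log2 ratio of MCM4 exceeded that of MCM7 by 0.39 with siRNA 1 (95% counting interval 0.28 to 0.51) and by 0.59 with siRNA 2 (0.47 to 0.71). These subunits had the highest and lowest mean ratio of the 6 and were paired after their values were seen. A difference was therefore likely in advance, and the intervals give its size only.

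Factors that turn the loaded helicase into a moving one included several of the higher ratios. Of 8 such genes, 7 were at least 25% above control with siRNA 1 and 4 with siRNA 2. CDC45, a subunit of the active helicase, had 41.3 CPM with siRNA 1 and 33.9 CPM with siRNA 2, against 24.9 CPM in control, with log2 ratios of 0.71 (counting standard error 0.071) and 0.43 (0.074). GINS3, a subunit of the GINS ring that holds CDC45 to the helicase, had 11.9 CPM with siRNA 1 and 12.4 CPM with siRNA 2, against 7.84 CPM in control. Its log2 ratios were 0.55 and 0.60, and at this low level each had a counting standard error of 0.12. Among the other GINS subunits, GINS1 had log2 ratios of 0.57 and 0.42, GINS4 of 0.37 and 0.33, and GINS2 of 0.34 and 0.14 with siRNA 1 and siRNA 2. MCM10, which helps start the helicase, had 41.5 CPM with siRNA 1 and 30.0 CPM with siRNA 2, against 27.3 CPM in control. CDC7, the kinase, had 20.7 CPM with siRNA 1 and 15.4 CPM with siRNA 2, against 13.2 CPM in control. DBF4, the activating subunit of CDC7, had 39.1 CPM with siRNA 1 and 41.2 CPM with siRNA 2, against 36.8 CPM in control. The kinase and its activator thus differed with siRNA 1, at log2 ratios of 0.62 for CDC7 and 0.09 for DBF4, a difference of 0.53 (95% counting interval 0.31 to 0.76). With siRNA 2 that difference was 0.05, with an interval of -0.18 to 0.29.

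Origin recognition and licensing genes were mixed, and ORC2 among them had the lowest mean ratio of all 59 genes. Of the 6 compared, 2 were at least 25% above control with siRNA 1 and 1 with siRNA 2. ORC2, a core subunit of the origin recognition complex, had 59.1 CPM with siRNA 1 and 57.8 CPM with siRNA 2, against 65.8 CPM in control, with log2 ratios of -0.15 and -0.18 (counting standard error 0.051 for each). ORC3, its partner in the complex, had 45.4 CPM with siRNA 1 and 37.0 CPM with siRNA 2, against 41.6 CPM in control, and so lay above control with siRNA 1 and below it with siRNA 2. ORC6, the smallest subunit, had 37.6 CPM with siRNA 1 and 37.2 CPM with siRNA 2, against 28.5 CPM in control, with log2 ratios of 0.39 and 0.37. ORC1, an ATP-binding subunit whose level varies through the cell cycle in human cells, was below 5 CPM on average, at 6.08 CPM with siRNA 1, 4.68 CPM with siRNA 2 and 3.56 CPM in control. Within the complex, ORC6 stood above control and ORC2 below it in both siRNA libraries, and ORC1 was above control with siRNA 1 and within counting error of it with siRNA 2. CDC6, an ATPase that loads the helicase, had 102.6 CPM with siRNA 1 and 94.6 CPM with siRNA 2, against 83.7 CPM in control. CDT1, its partner in loading, had 22.8 CPM with siRNA 1 and 18.9 CPM with siRNA 2, against 20.7 CPM in control, and both of its ratios lay within counting error. GMNN encodes geminin, the inhibitor of CDT1 that accumulates from S phase onward. GMNN had 131 CPM with siRNA 1 and 112 CPM with siRNA 2, against 91.0 CPM in control, with log2 ratios of 0.52 (counting standard error 0.039) and 0.30 (0.040).

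The sliding clamp PCNA, the ring that tethers polymerases to DNA, had 138 CPM with siRNA 1 and 125 CPM with siRNA 2, against 94.2 CPM in control, with log2 ratios of 0.55 (counting standard error 0.038) and 0.40 (0.039). The 5 subunits of its loader, replication factor C, differed among themselves. RFC4 had 101.5 CPM with siRNA 1 and 93.3 CPM with siRNA 2, against 70.4 CPM in control, with log2 ratios of 0.52 and 0.40. RFC3 had 50.8 CPM with siRNA 1 and 36.9 CPM with siRNA 2, against 33.5 CPM in control, with log2 ratios of 0.59 and 0.14. RFC2 had log2 ratios of 0.32 and 0.18. RFC5 had 34.8 CPM with siRNA 1 and 28.5 CPM with siRNA 2, against 29.8 CPM in control. RFC1, the large subunit, had 36.6 CPM with siRNA 1 and 33.1 CPM with siRNA 2, against 36.8 CPM in control, and its log2 ratios were -0.01 and -0.15. The log2 ratio of RFC4 exceeded that of RFC1 by 0.53 with siRNA 1 (95% counting interval 0.37 to 0.68) and by 0.55 with siRNA 2 (0.39 to 0.71). RFC4 and RFC1 had the highest and lowest mean ratio of the 5 and were paired after their values were seen, so the intervals give size only.

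Replication protein A, the trimer that coats single-stranded DNA, showed a like split. RPA3, its smallest subunit, had 206 CPM with siRNA 1 and 186 CPM with siRNA 2, against 138 CPM in control, with log2 ratios of 0.58 and 0.43 (counting standard error 0.032 for each). RPA1, the large subunit, had 61.3 CPM with siRNA 1 and 64.3 CPM with siRNA 2, against 55.8 CPM in control. RPA2, the middle subunit, had 53.3 CPM with siRNA 1 and 53.6 CPM with siRNA 2, against 48.4 CPM in control. Both larger subunits were above control by log2 ratios of 0.13 to 0.20, short of the 25% mark.

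Among primase and polymerase genes, 7 of 8 compared were at least 25% above control with siRNA 1 and 0 with siRNA 2. POLA1, the catalytic subunit of polymerase alpha, had 32.2 CPM with siRNA 1 and 22.0 CPM with siRNA 2, against 19.2 CPM in control, with log2 ratios of 0.71 (counting standard error 0.080) and 0.19 (0.086). POLA2, its accessory subunit, had log2 ratios of 0.43 and 0.21, and the primase subunits PRIM1 and PRIM2 had 0.35 and 0.36 with siRNA 1 and 0.24 and 0.06 with siRNA 2. POLD1, the catalytic subunit of the lagging-strand polymerase delta, had 35.5 CPM with siRNA 1 and 30.8 CPM with siRNA 2, against 24.8 CPM in control. POLD2, in the same enzyme, had log2 ratios of 0.20 (counting standard error 0.024) and -0.07 (0.025), and POLD3 of 0.35 and 0.06. POLE, the catalytic subunit of the leading-strand polymerase epsilon, had 27.2 CPM with siRNA 1 and 24.6 CPM with siRNA 2, against 19.6 CPM in control, with log2 ratios of 0.46 and 0.32. With siRNA 2 POLE was 25.8% above control in CPM alone, and fell just short of 25% on the (CPM + 1) scale. POLE2, its second subunit, was below 5 CPM on average, at 6.24 CPM with siRNA 1, 4.84 CPM with siRNA 2 and 3.64 CPM in control.

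The 3 genes that finish Okazaki fragments, the short pieces of the lagging strand, were all above control in both libraries. LIG1, the ligase that seals them, had 23.8 CPM with siRNA 1 and 23.2 CPM with siRNA 2, against 16.0 CPM in control, with log2 ratios of 0.55 and 0.51. FEN1, the flap endonuclease, had 79.3 CPM with siRNA 1 and 69.6 CPM with siRNA 2, against 55.0 CPM in control, with log2 ratios of 0.52 and 0.33. RNASEH2A, a subunit of the enzyme that cuts RNA out of RNA-DNA hybrids, had 62.6 CPM with siRNA 1 and 54.8 CPM with siRNA 2, against 45.2 CPM in control. Its log2 ratios were 0.46 and 0.27, and all 3 genes were past 25% with siRNA 1.

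Regulators of S phase entry were mixed. CCNE1, which encodes cyclin E1, had 12.9 CPM with siRNA 1 and 13.6 CPM with siRNA 2, against 12.7 CPM in control, within counting error in both comparisons. CCNE2, for cyclin E2, had 16.8 CPM with siRNA 1 and 18.5 CPM with siRNA 2, against 14.2 CPM in control, with log2 ratios of 0.23 and 0.36. E2F1, a transcription factor that activates S phase genes, had 17.1 CPM with siRNA 1 and 16.3 CPM with siRNA 2, against 12.7 CPM in control, with log2 ratios of 0.41 (counting standard error 0.100) and 0.34 (0.101). E2F2, its relative, was below 5 CPM in every library, at 3.60 CPM with siRNA 1, 3.32 CPM with siRNA 2 and 2.44 CPM in control.

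Of 4 genes that rebuild chromatin behind the fork or supply histones, 2 were at least 25% above control with siRNA 1 and 1 with siRNA 2. UHRF1, which guides maintenance DNA methylation, had 37.7 CPM with siRNA 1 and 33.0 CPM with siRNA 2, against 26.4 CPM in control, with log2 ratios of 0.50 and 0.31. CHAF1A and CHAF1B, subunits of chromatin assembly factor 1, had log2 ratios of 0.31 and 0.33 with siRNA 1 and of 0.37 and 0.14 with siRNA 2, where CHAF1B was within counting error of control. SLBP, which binds the stem-loop of histone mRNA, had 165 CPM with siRNA 1 and 154 CPM with siRNA 2, against 139.6 CPM in control. Its log2 ratios of 0.24 and 0.14 (counting standard error 0.033 for each) were small but outside counting error.

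Fork protection and checkpoint genes were all above control with siRNA 1, and 4 of the 5 were past 25%. CLSPN encodes claspin, which couples the fork to the checkpoint kinase. CLSPN had 21.0 CPM with siRNA 1 and 22.9 CPM with siRNA 2, against 16.5 CPM in control, with log2 ratios of 0.33 and 0.45. CHEK1, that checkpoint kinase, had 42.1 CPM with siRNA 1 and 33.5 CPM with siRNA 2, against 32.8 CPM in control. WDHD1, an anchor for polymerase alpha at the fork, had 29.1 CPM with siRNA 1 and 21.4 CPM with siRNA 2, against 19.96 CPM in control, with log2 ratios of 0.52 and 0.09. TIMELESS had log2 ratios of 0.36 and 0.11, and its binding partner TIPIN of 0.26 and 0.20. CLSPN was the only gene of this group past 25% with siRNA 2.

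The comparison of siRNA 1 with siRNA 2 does not use the control library. The median log2 ratio of the 56 genes between siRNA 1 and siRNA 2 was 0.19, beside 0.02 over all genes compared. Of the 56, 10 were at least 25% higher with siRNA 1 and 0 lower, where 6.34% of all genes were that far higher and 4% that far lower. At 1.5-fold 0 were higher and 0 lower, beside 0.899% and 0.695% of all genes. By any amount 48 were higher and 8 lower with siRNA 1, beside 55% and 44.6% of all genes. The 10 were POLA1, MCM10, RFC3, MCM2, WDHD1, CDC7, TK1, RRM1, MCM5 and MCM6. POLA1 had the highest ratio at 0.53 (counting standard error 0.077), then MCM10 at 0.45 (0.067), RFC3 at 0.45 (0.061) and MCM2 at 0.44 (0.030). All 6 helicase subunits were higher with siRNA 1, and their summed level was 641 CPM with siRNA 1 and 519 CPM with siRNA 2, or 1.24 times (95% exact interval 1.21 to 1.26). At the other end, 8 genes were lower with siRNA 1 than siRNA 2, all within counting error: RPA2, GINS3, CHAF1A, RPA1, CCNE1, DBF4, CLSPN and CCNE2. RAB11A itself was lower with siRNA 1 than siRNA 2, by a log2 ratio of -1.48, and whether depth of knockdown bears on this difference was not tested.

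**Figure D4:**
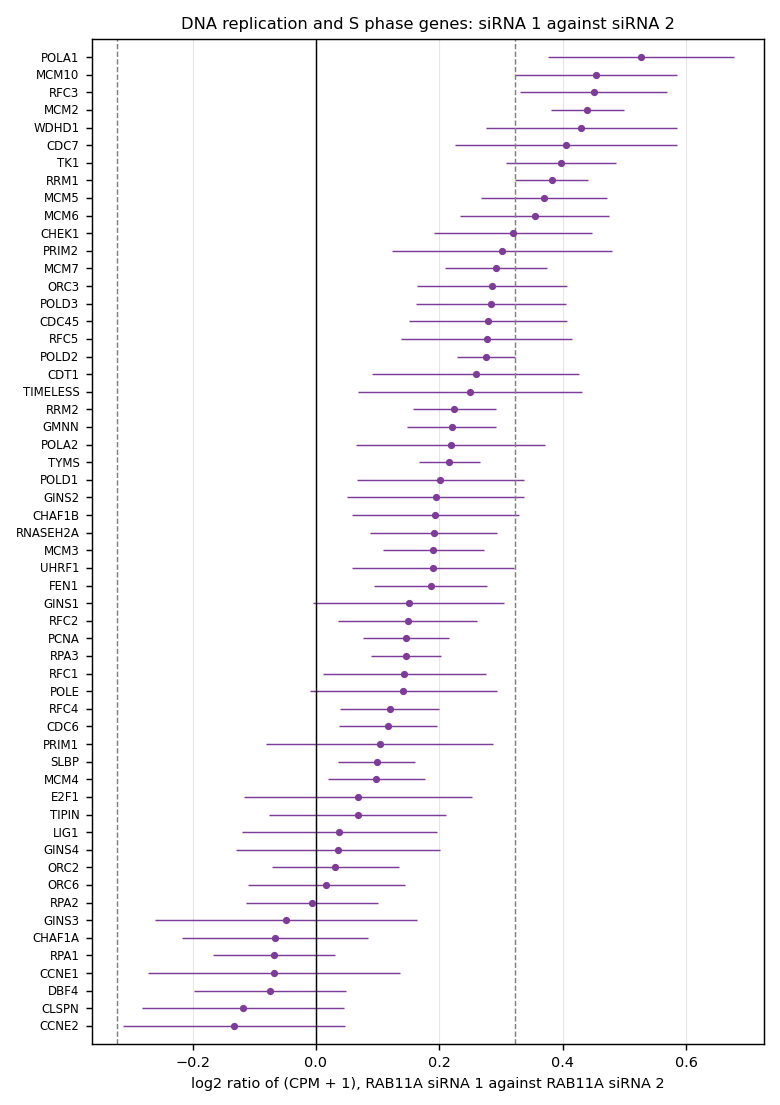
Log2 ratio of (CPM + 1) of RAB11A siRNA 1 to RAB11A siRNA 2 for the 56 replication genes compared, sorted, with bars for 95% counting intervals and dashed lines at 0.32 either way. The ratios run from -0.13 for CCNE2 to 0.53 for POLA1, and 48 of 56 are above 0.

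Many replication genes start close to another gene that runs the opposite way, which sets 2 transcripts from 1 stretch of DNA side by side. After the values had been seen, protein-coding neighbours on the opposite strand whose annotated start lay within 1000 bases of a replication gene's start were looked up. In 18 such pairs the neighbour had a mean of at least 5 CPM. The replication genes of these pairs include ORC1, which itself averaged below 5 CPM. Against control, the median log2 ratio of these 18 replication genes was 0.52 with siRNA 1 and 0.27 with siRNA 2. That of their neighbours was -0.01 and -0.06, near the -0.03 and -0.04 of all genes compared. The replication gene had the higher log2 ratio in 16 of 18 pairs with siRNA 1 and in 17 of 18 with siRNA 2. Most replication genes were already known to stand above control, so such counts were likely beside genes in general. They therefore show nothing particular to a shared start region. Between siRNA 1 and siRNA 2, the comparison without the control library, the replication gene was higher in 10 of 18 pairs. The median log2 ratio there was 0.15 for the replication genes and 0.10 for their neighbours. With siRNA 1, 12 of these replication genes and 1 neighbour, ABHD12, were at least 25% above control, where 10.2% of all genes compared were. With siRNA 2, 7 of the replication genes and 0 neighbours were, where 6% of all genes compared were. Past a log2 ratio of -0.32 with siRNA 2 were 3 of the 18 neighbours (PRPF38A, VPS35 and AP4M1), where 11.2% of all genes compared were.

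In most pairs the replication gene had the higher ratio to control, and some are given here by value. TK1 starts 125 bases from AFMID, a kynurenine pathway enzyme gene, which had 88.4 CPM with siRNA 1 and 93.4 CPM with siRNA 2, against 97.1 CPM in control, while TK1 was above control in both. PCNA starts 253 bases from CDS2, a phospholipid synthesis gene, which had 23.6 CPM with siRNA 1 and 23.8 CPM with siRNA 2, against 26.0 CPM in control. MCM4 starts 7 bases from PRKDC, the DNA-dependent protein kinase gene, which had 171 CPM with siRNA 1 and 193 CPM with siRNA 2, against 196 CPM in control. ORC6 starts 125 bases from VPS35, a retromer gene of endosomal sorting, which had 145 CPM with siRNA 1 and 126 CPM with siRNA 2, against 160.0 CPM in control. GINS1 and ABHD12 differed less, since ABHD12 had 54.5 CPM with siRNA 1 and 48.8 CPM with siRNA 2, against 42.2 CPM in control. The exceptions with siRNA 1 were SLBP beside TACC3 and RPA1 beside SMYD4, and with siRNA 2 ORC3 beside RARS2. Limiting the pairs to protein-coding neighbours left out TYMS and the noncoding C18orf56, which overlaps its start on the opposite strand. C18orf56 had 40.5 CPM with siRNA 1 and 34.0 CPM with siRNA 2, against 23.2 CPM in control. Its log2 ratios of 0.78 and 0.53 were above those of TYMS, so this pair went the other way. The values of C18orf56 were identical to those of the entry RP11-806L2.5, so their tags cannot be told apart.

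**Figure D5:**
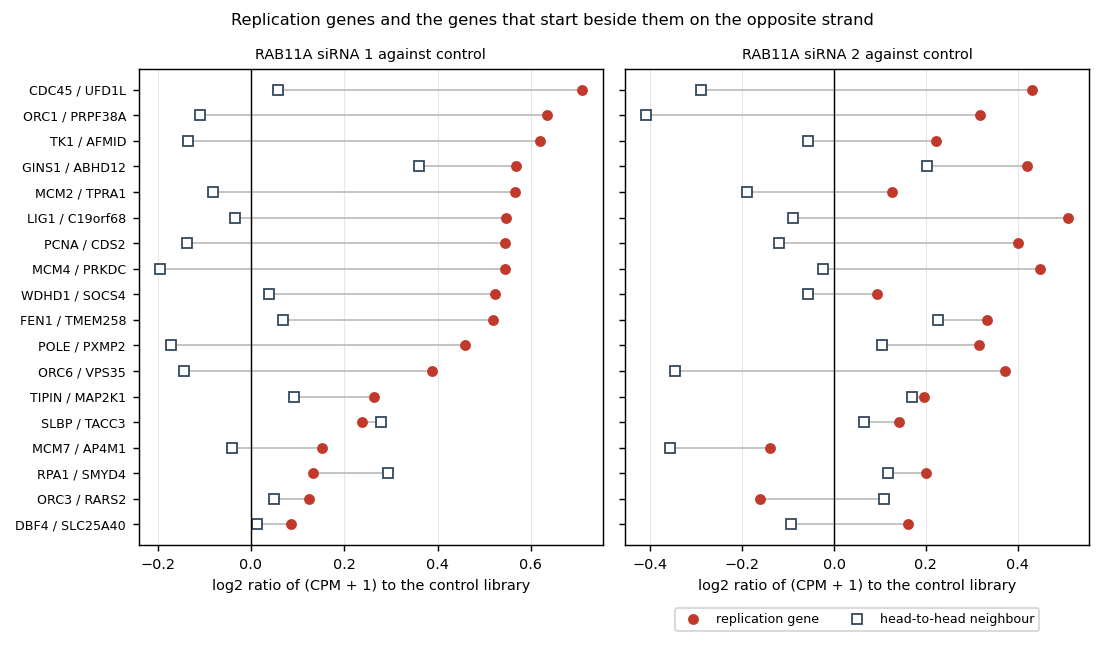
Log2 ratio of (CPM + 1) to the control library for 18 replication genes (filled circles) and the protein-coding gene that starts within 1000 bases on the opposite strand (open squares), with siRNA 1 on the left and siRNA 2 on the right. In 16 and 17 of the 18 rows the circle lies right of the square, and the squares have medians of -0.01 and -0.06.

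Promoter sequences are shown for the genes with the highest and lowest mean ratios to control, because CAGE counts the transcripts that start there. RefSeq windows of 250 bases before to 50 bases after an annotated start (GRCh38.p14) were found for 52 of the 59 genes, in 68 windows. Such a start need not be the one used in EBC-1 cells. Each window was searched on both strands for 3 motifs, and none of the words searched contains another motif's word. The E2F consensus was read as TTTCCCGC, TTTCGCGC, TTTGCCGC or TTTGGCGC. The CHR element of late cell cycle genes was read as TTTGAA or TTCGAA, and the CCAAT box as CCAAT. In the sequences, capitals mark these matches.
RRM2 (GRCh38.p14, chr2:10122489-10122788, plus strand): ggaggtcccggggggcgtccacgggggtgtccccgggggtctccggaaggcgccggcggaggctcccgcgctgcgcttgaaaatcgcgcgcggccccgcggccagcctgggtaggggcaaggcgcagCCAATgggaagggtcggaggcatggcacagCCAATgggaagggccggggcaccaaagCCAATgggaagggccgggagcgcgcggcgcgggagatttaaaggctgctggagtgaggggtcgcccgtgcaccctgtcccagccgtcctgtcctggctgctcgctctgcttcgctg
TYMS (GRCh38.p14, chr18:657403-657702, plus strand): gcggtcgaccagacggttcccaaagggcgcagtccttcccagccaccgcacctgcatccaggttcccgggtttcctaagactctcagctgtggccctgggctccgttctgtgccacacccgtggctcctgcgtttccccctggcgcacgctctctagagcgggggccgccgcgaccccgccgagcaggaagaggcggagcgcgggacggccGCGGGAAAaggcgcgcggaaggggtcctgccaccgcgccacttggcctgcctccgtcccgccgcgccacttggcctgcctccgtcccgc
GINS3 (GRCh38.p14, chr16:58392221-58392520, plus strand): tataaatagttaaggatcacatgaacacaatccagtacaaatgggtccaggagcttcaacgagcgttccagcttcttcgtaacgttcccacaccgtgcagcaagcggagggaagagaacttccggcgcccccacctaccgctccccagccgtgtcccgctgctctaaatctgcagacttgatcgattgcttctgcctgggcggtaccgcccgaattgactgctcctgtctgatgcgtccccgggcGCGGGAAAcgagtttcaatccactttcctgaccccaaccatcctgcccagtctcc
RFC1 (GRCh38.p14, chr4:39366313-39366612, minus strand): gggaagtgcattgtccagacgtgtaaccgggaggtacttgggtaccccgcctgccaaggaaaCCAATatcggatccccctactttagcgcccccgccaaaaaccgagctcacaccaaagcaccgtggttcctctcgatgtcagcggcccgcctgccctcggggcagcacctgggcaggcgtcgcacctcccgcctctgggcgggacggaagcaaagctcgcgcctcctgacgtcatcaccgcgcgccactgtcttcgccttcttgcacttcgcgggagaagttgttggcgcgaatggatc
ORC2 (GRCh38.p14, chr2:200963611-200963910, minus strand): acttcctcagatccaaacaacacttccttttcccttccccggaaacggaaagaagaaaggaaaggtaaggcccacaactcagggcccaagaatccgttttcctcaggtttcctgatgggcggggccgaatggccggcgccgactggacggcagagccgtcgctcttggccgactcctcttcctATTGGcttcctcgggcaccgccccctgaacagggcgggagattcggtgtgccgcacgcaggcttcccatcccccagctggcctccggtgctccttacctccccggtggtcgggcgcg

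RRM2, TYMS and GINS3 had the 3 highest mean log2 ratios to control among genes with a printable window, and RFC1 and ORC2 the lowest. The RRM2 window printed here holds 3 CCAAT boxes, first bases at -123, -93 and -66 from the start, and no match to the E2F letters. Another RRM2 window, chr2:10122318-10122617, is not printed. It holds 1 CCAAT match, at -249 from its own start, and no E2F match. The TYMS window holds 1 E2F match at -39, and the GINS3 window 1 at -5, both read on the opposite strand. The RFC1 and ORC2 windows hold 1 CCAAT match each, at -188 and -67, and no E2F match. A match is a string of letters, not a shown binding site, and a window without one says only that these letters are not in it.

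Over all 68 windows, 26 held the E2F letters (38.2%), against 1164 of 35116 RefSeq windows of the same length (3.31%) and 608 of 10968 windows of genes compared here (5.54%). CCAAT was in 40 of the 68 windows (58.8%), against 34.6% of all windows, and the CHR letters in 3 (4.41%), against 16.4%. Among the compared genes, the 23 with an E2F match in any window had a median log2 ratio of 0.47 for siRNA 1 against control, and 0.21 for siRNA 2. The 26 with a window but no match had 0.35 and 0.15. At least 25% above control with siRNA 1 were 17 of the 23 and 17 of the 26, and with siRNA 2, 7 and 6. Genes without the letters, RRM2 among them, therefore also stood above control, and MCM6, MCM7 and CDT1, with the letters, were below control with siRNA 2.

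Other lists of the pathway are given beside the same shares of all genes, 10.2% above and 11.6% below control with siRNA 1, and 6% above and 11.2% below with siRNA 2. Of 28 other replication factors compared, 11 were at least 25% above control with siRNA 1 and 2 below, and 10 were above and 0 below with siRNA 2, with median log2 ratios of 0.30 and 0.18. TICRR, which helps CDC45 join the helicase, had 10.2 CPM with siRNA 1 and 8.12 CPM with siRNA 2, against 5.36 CPM in control, and MCM8, a helicase of recombination, had log2 ratios of 0.53 and 0.58. TOP1, the topoisomerase that relaxes DNA, was below control at 71.4 CPM with siRNA 1 and 78.5 CPM with siRNA 2, against 95.4 CPM. Of 10 other deoxynucleotide genes, 7 were at least 25% above control and 1 as far below with siRNA 1, and 3 above and 0 below with siRNA 2, with median log2 ratios of 0.38 and 0.21. SAMHD1, which degrades deoxynucleotides, had log2 ratios of 0.56 and 0.57, and DCTPP1, which clears modified ones, 0.76 and 0.26. RRM2B, the alternative small subunit of ribonucleotide reductase that p53 can induce, had 14.1 CPM with siRNA 1 and 15.4 CPM with siRNA 2, against 18.9 CPM in control. Its log2 ratios were -0.40 and -0.28, opposite in sign to those of RRM2.

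Of 22 S phase repair and checkpoint genes, 11 were at least 25% above control with siRNA 1 and 3 with siRNA 2, and 0 were as far below, with median log2 ratios of 0.27 and 0.17. FANCD2, of the crosslink repair pathway, had 100.0 CPM with siRNA 1 and 71.2 CPM with siRNA 2, against 57.6 CPM in control, RMI2 had log2 ratios of 0.74 and 0.46, and RAD17 of -0.21 and -0.10. Of 14 other E2F and DREAM genes, 3 were at least 25% above control and 0 as far below with siRNA 1. With siRNA 2, 1 was above and 1, E2F4, below, near the shares of all genes, and the median log2 ratios were 0.12 and 0.01. E2F8, an E2F that represses transcription, had log2 ratios of 0.79 and 0.56, and E2F5 of 0.37 and 0.22. E2F4, the main E2F of resting cells, had 88.2 CPM with siRNA 1 and 76.3 CPM with siRNA 2, against 109 CPM in control. Of 12 other nucleosome assembly genes, 2 were at least 25% above control with siRNA 1 and 1 with siRNA 2, near the shares of all genes, and 0 were as far below in either. Above control in both libraries were 5 of the 12 and below it in both 3, and the median log2 ratios were 0.06 and 0.00. They included the histone chaperone ASF1B at 0.61 and 0.32, the maintenance methyltransferase DNMT1 at 0.43 and 0.25, and RBBP4 at -0.11 and -0.26. Of 3 cyclin-dependent kinase inhibitors compared, 0 were at least 25% above control and 1, CDKN1C, was as far below in both libraries. CDKN1A had 39.4 CPM with siRNA 1 and 46.0 CPM with siRNA 2, against 48.0 CPM in control. CDKN1B had log2 ratios of 0.08 and -0.08. CDKN1C had 4.52 CPM with siRNA 1 and 4.60 CPM with siRNA 2, against 6.16 CPM in control. The other listed inhibitors, CDKN2C and CDKN2D, averaged below 5 CPM and were not among those compared. CDKN2C had 5.36 CPM with siRNA 1 and 2.4 CPM with siRNA 2, against 1.76 CPM in control. On the (CPM + 1) scale CDKN2C was at least 25% above control with siRNA 1 but not with siRNA 2. CDKN2D had 4.88 CPM with siRNA 1 and 4.56 CPM with siRNA 2, against 4.16 CPM in control, short of 25% in both.

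Some entries carry limits from position or sequence. An annotated transcript start of 10 of the 59 genes (MCM4, RFC1, RPA1, RPA2, POLA1, PRIM1, POLE, FEN1, RRM1 and RRM2) also matched another place in GRCh37 with at most 2 mismatches over 50 bases, and their tags are uncertain to that extent. PRIM1, POLD3, FEN1, CHAF1B and CHEK1 overlap another listed gene on the same strand, with values that are not identical. Among the opposite-strand neighbours, SMYD4, PXMP2 and TMEM258 had values identical to those of AC130689.1, RP13-672B3.2 and MIR611 in turn, so those tags cannot be told apart. In bulk RNA, a larger share of cells in S phase and more of these transcripts per cell cannot be told apart.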

How the data were processed

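CAGE libraries were prepared from total RNA of EBC-1 cells, 1 for each siRNA, per the labels' protocols. The authors deposited CPM by gene, and column names matched the libraries. For build and tools, the submitters' processing notes list hg19, BWA and HISAT2. The roles of these tools, the counting step and the treatment of multiply matching reads were not given in the sources used here. In the table, each gene reached 0.52 CPM in at least 1 library. All deposited CPM (100%) were whole multiples of 1 tag within 0.01 CPM, so tags were recovered.

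Ratios were log2 of (CPM + 1), which understates those of low genes. With no replicates, no test of the conditions was possible, and a fold rule was used. Counting standard errors and exact 95% intervals (Poisson for levels, Clopper-Pearson for ratios of tags) treat tags as independent and cover counting error only. Subunit pairs and opposite-strand neighbours were chosen after their values were seen. The exact binomial test on tags was two-sided and compares libraries only. The code was tested on simulated data.

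The members and gene lists were chosen with earlier results of these data known. Named genes were, per role, up to 4 with the largest mean ratio and the one nearest 0, plus MCM2 to MCM7, genes below control or below 5 CPM, and those that differed most between siRNAs. Further members were named to complete complexes after their values were seen. Each other list gave its 2 highest and 1 lowest among genes compared, and the kinase inhibitors below 5 CPM were added. Positions came from GENCODE lifted to GRCh37, where 13163 of 13479 identifiers were found (UHRF1 was matched by symbol), and promoter windows from RefSeq. Tools were minimap2 2.31 for copies of starts, edgeR 4.0.16 (R 4.3.3) for scaling factors, and Python 3.11.15 (scipy 1.17.1, pandas 2.3.3, numpy 2.4.6, matplotlib 3.10.9).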

Additional observations from a re-analysis of the deposited data

Results flagged for a closer look

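For 3 replication genes, both siRNA libraries lay outside counting error of control but on opposite sides of it. ORC3 stood at a log2 ratio of 0.12 for siRNA 1 and -0.16 for siRNA 2. MCM7 had 0.15 with siRNA 1 and -0.14 with siRNA 2. POLD2 had 0.20 with siRNA 1 and -0.074 with siRNA 2. Each was within a log2 ratio of 0.32 of control, and with 1 library per group the difference was not tested. The share of all genes compared that split in this way was not counted. Whether such a split is common among genes in general is therefore not known here.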

How the results depend on the processing

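No paired analysis was possible because each group has 1 library. The median log2 ratios kept their sign under every alternative run. Main medians were 0.39 for siRNA 1 against control, 0.20 for siRNA 2 against control and 0.19 for siRNA 1 against siRNA 2. They were 0.34, 0.17 and 0.18 with a pseudocount of 5 CPM, and 0.42, 0.24 and 0.17 with TMM and again with median-of-ratios scaling. A minimum mean of 20 CPM gave 0.43 for siRNA 1 against control, and leaving out the 10 genes with a copied start, chosen after seeing the data, gave 0.38. Scaling moved the median of all genes by at most 0.05. Counts past 25% stayed within 1.5 times of the reported count under the other pseudocounts, filters and scalings. The binomial test on tags, chosen after seeing the data and free of a fold limit, gave for siRNA 1 against control 50 higher and 1 lower. It gave 34 and 4 for siRNA 2 against control, and 38 and 0 for siRNA 1 against siRNA 2. Of 612 recomputed ratios of 51 named genes, 4 crossed 0, those of ORC6 between siRNAs and RFC1 with siRNA 1, each within counting error. The depth of the libraries leaves counting error small, and with 1 culture per group the spread between cultures is unknown.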
